A study of Rattus norvegicus with 6 samples.

Results

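The SLC25 carriers are the proteins that move metabolites, nucleotides and cofactors across the inner mitochondrial membrane. They were examined here in the livers of rats given a solvent, tert-butyl alcohol (tBA), or vehicle. The animals were males of the outbred Sprague-Dawley stock. The tBA group was 3 rats dosed at 1000 mg/kg/day and the vehicle group was 3 rats, bought at 5 weeks of age, and the RNA of each liver was read on its own one-colour array. On the vehicle the labels were divided between water (sample labels) and corn oil (treatment protocol), and on the length of dosing between 28 days (series text) and 9 weeks (treatment protocol). The members were the genes whose symbol begins with Slc25a, apart from the citrate carrier Slc25a1, the ornithine carrier Slc25a15 and the carnitine carrier Slc25a20. This gave 35 genes of the 15284 that could be named on the array, read by 76 of its 61657 probes. The rule works on names, but it was set with earlier results of these data known. A further 11 rat carriers listed by RefSeq were matched to no probe, among them the aspartate-glutamate carriers Slc25a12 and Slc25a13 and the carriers Slc25a45 and Slc25a48, and are not analysed here.

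An SLC25 carrier is built from repeats of a pair of membrane helices around a central cavity, and it typically exchanges a substrate on the matrix side for a substrate on the cytosolic side. Through these proteins the matrix receives ADP and phosphate for ATP synthesis and the cofactors its enzymes need. In liver they also connect mitochondrial steps of glucose production, urea synthesis and fat synthesis with the cytosolic ones.

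Each array gave a log2 signal relative to its own 75th percentile, and each gene was read from its probe with the highest mean signal. All vehicle arrays shared slide 1 with tBA replicate 1, while tBA replicates 2 and 3 were on slide 2, so only tBA replicate 1 has vehicle arrays beside it on its slide. The share of probes well above background was 61.5% to 66.9% per array, no spot was saturated, and the 8 hepatocyte markers were all well above background on all 6 arrays. Albumin, for example, was at 9.59, 9.58 and 9.58 on the tBA arrays and at 9.65, 9.54 and 9.55 on the vehicle arrays. Of 9 skeletal muscle markers, 3, including the fast myosins Myh1 and Myh4, were above background on no array, as were Adipoq and Lep of 6 adipocyte markers and Prss1, Cela1 and Pnlip of 7 pancreas markers. Other markers were above it on all 6 arrays: Ckm, Tnnc2 and Atp2a1 of muscle, Fabp4, Cfd and Cidea of adipocytes, and Amy2a3, Ctrb1 and Cel of pancreas. The rest were above it on some arrays, with Acta1 on 3 tBA arrays and 1 vehicle array. The log2 of the summed adipocyte marker level was 4.48 to 4.66 with tBA and 3.63 to 4.12 with vehicle, which did not overlap, and its part in the carriers' values was not tested. Of the 4 adipocyte markers tested, Cidea alone had groups without overlap, at 3.73, 3.30 and 3.80 with tBA and at 1.97, 2.68 and 1.5 with vehicle, while Cfd, Fabp4 and Retn overlapped.

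Repeated dosing with tBA was set against vehicle to find transcripts that differed in liver, and none of the carriers passed the test. Of the 35, 31 were well above background on all 6 arrays and were tested, and 0 of these had an adjusted p under 0.05 in limma, over 37647 probes. In the same fit 0.0451% of all 11093 tested genes passed. When only probes above background on all 6 arrays were fitted, as the tested carriers were, 0 of 35660 probes passed. At an unadjusted limma p under 0.05 the carriers numbered 4, which is 12.9% of those tested against 15.1% of all genes, a share near the background. By direction they were 2 higher and 2 lower, where 7.64% of all genes were higher and 7.44% lower at that p. These 4 were the pyrimidine nucleotide carrier Slc25a33 and the basic amino acid carrier Slc25a29 on the higher side, and the uncoupling protein relatives Slc25a30 and Slc25a14 on the lower side. In bulk liver RNA, fewer cells of a type and less RNA per cell cannot be told apart.

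Most of the carriers lay close to the vehicle level. The differences, tBA minus vehicle on the log2 scale, had a median of 0.081 over the 31 carriers and of 0.003 over all tested genes. The median size regardless of sign was 0.16 for the carriers and 0.16 for all genes. With tBA 19 carriers were higher and 12 lower, so 61.3% were higher, against 50.6% of all genes. A difference of 0.5 or more was found in 4 carriers, 12.9% of those tested, against 9.48% of all genes. For 16 carriers the whole 95% interval lay within 0.5 of zero, and for 27 within 1. The tBA and vehicle values did not overlap in 6 carriers, 19.4% of those tested, against 24.2% of all genes. Of these 6, 4 were higher and 2 lower with tBA, where 12.8% and 11.3% of all genes were higher and lower without overlap. With 3 arrays against 3 the exact two-sided permutation test cannot go below p = 0.1, which is the value these 6 reached.

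**Figure D1:**
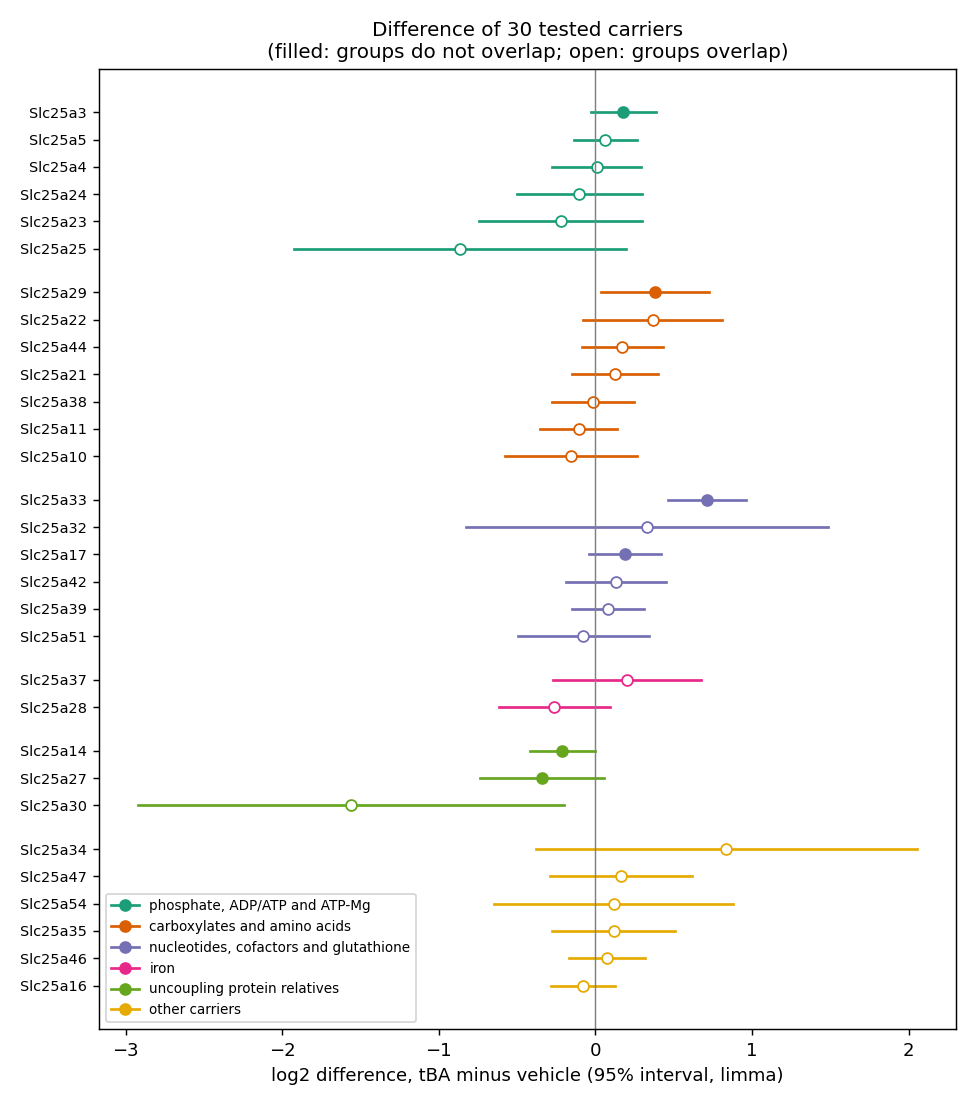
The horizontal axis gives the log2 difference, tBA minus vehicle, of 30 tested carriers with the 95% interval from limma, grouped by the substrate the carrier is known for (n = 3 arrays a group). Most intervals cross zero; Slc25a34 lies furthest right at 0.84 with a wide interval and Slc25a33 next at 0.71 with a narrower interval, and Slc25a30 and Slc25a25 stand to the left at -1.56 and -0.87 with wide intervals.

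Among the carriers that supply phosphate and adenine nucleotides, 3 of 6 tested were higher and 3 lower with tBA, and none passed the test. Slc25a3, which brings phosphate into the matrix, was at 6.29, 6.41 and 6.34 on the tBA arrays, against 6.14, 6.13 and 6.24 on the vehicle arrays. All 3 tBA values were above the vehicle range, by a difference of 0.18 (SE 0.09, limma adjusted p = 0.364). That is 1.13-fold in linear signal, and under quantile normalization the difference was 0.06. The second probe of Slc25a3 was at 0.24, with overlapping groups.

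Slc25a5, the ADP/ATP carrier isoform widespread in tissues outside muscle, was at 5.56, 5.68 and 5.59 with tBA, against 5.56, 5.50 and 5.57 with vehicle. The groups overlapped and the difference was 0.064, with a 95% interval from -0.14 to 0.26 (limma adjusted p = 0.718). Its 4 probes gave 0.032 to 0.12. RefSeq lists 9 pseudogenes of Slc25a5 in the rat. It also lists 8 of Slc25a39, 2 of Slc25a3, and 1 each of Slc25a4, Slc25a33 and some other carriers. Whether pseudogenes add to the signals of these carriers was not tested. Slc25a4, the ADP/ATP carrier of heart and muscle, was at 0.84, 0.77 and 0.81 with tBA, against 0.58, 0.87 and 0.95 with vehicle. Its difference was 0.008, with an interval from -0.28 to 0.29, and the vehicle values spanned the tBA values. The sign of both isoforms is not settled, since under quantile normalization Slc25a5 was at -0.035 and Slc25a4 at -0.013, and 2 of the 3 probes of Slc25a4 were below zero.

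The calcium-regulated carriers that exchange ATP-Mg for phosphate, and so set the size of the matrix adenine nucleotide pool, varied more. Slc25a25, a member of this group, was at 6.16, 5.86 and 5.38 on the tBA arrays, against 7.47, 6.74 and 5.79 on the vehicle arrays. The tBA mean was 5.80 ± 0.39 and the vehicle mean 6.67 ± 0.84 (SD, n = 3 each), and vehicle replicate 3 lay inside the tBA range. The difference of -0.87 (SE 0.44, limma adjusted p = 0.378) depended on the vehicle arrays, at -0.46 when vehicle replicate 1 was left out and -1.30 when vehicle replicate 3 was. A fixed block for slide, in which tBA replicate 1 is the only tBA array compared with vehicle, gave -0.50. The second probe of Slc25a25 gave -0.93 (adjusted p = 0.416). Its relatives Slc25a23 and Slc25a24 were at -0.22 and -0.10 with overlapping groups, and Slc25a41 was above background on none of the arrays.

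Carriers of carboxylates and amino acids gave 4 higher and 3 lower values among 7 tested. Slc25a29, which carries arginine, lysine and other basic amino acids, was at -0.20, -0.46 and -0.67 with tBA, against -0.95, -0.77 and -0.75 with vehicle. The groups did not overlap, though the nearest tBA and vehicle arrays were close. The difference was 0.38 (SE 0.14, limma adjusted p = 0.293), with a second probe at 0.26 and a value of 0.62 with slide as a fixed block. Slc25a22, which moves glutamate with a proton, was at 5.62, 5.76 and 5.33 with tBA, against 5.51, 5.16 and 4.94 with vehicle. Its groups overlapped and the difference was 0.36 (SE 0.18, adjusted p = 0.377). It ran from 0.23 without vehicle replicate 3 to 0.52 without vehicle replicate 1.

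The dicarboxylate carrier Slc25a10 exchanges malate or succinate for phosphate. It was at 3.76, 3.27 and 3.58 with tBA, against 3.43, 3.78 and 3.86 with vehicle. The groups overlapped, and the difference of -0.16 (SE 0.17, limma adjusted p = 0.672) turned to 0.066 with slide as a fixed block. Slc25a11, the 2-oxoglutarate/malate carrier of the malate-aspartate shuttle, was at 3.82, 3.92 and 4.01 with tBA, against 4.0, 4.14 and 3.93 with vehicle. Its difference was -0.11, with a 95% interval from -0.35 to 0.14. In the same group the carrier of branched-chain amino acids Slc25a44 was at 0.17, the oxodicarboxylate carrier Slc25a21 at 0.12 and the glycine carrier Slc25a38 at -0.016, all with overlapping groups. The glutamate carrier Slc25a18 was above background on none of the arrays. The ornithine carrier Slc25a2 was above it on 2 tBA arrays and 1 vehicle array, and neither was tested.

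**Figure D2:**
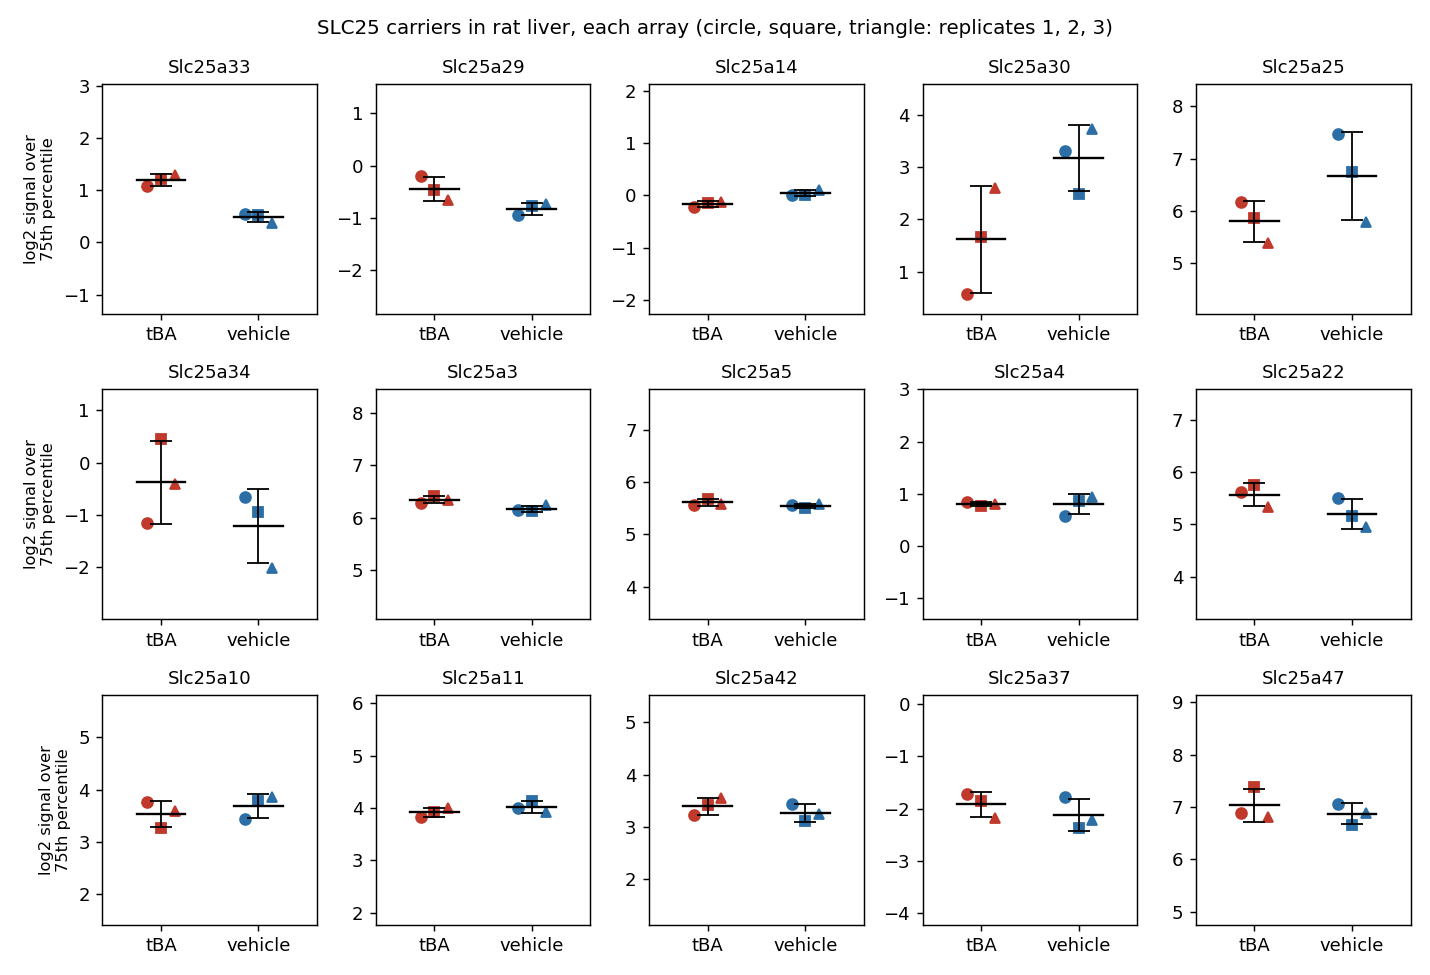
Each panel shows a named carrier, with the log2 signal relative to the array's 75th percentile on the vertical axis (every panel spans the same range), the 3 tBA arrays on the left and the 3 vehicle arrays on the right; bars are mean and SD. The groups do not overlap for Slc25a33, Slc25a29, Slc25a14 and Slc25a3, though the nearest arrays of Slc25a29 and Slc25a3 lie close together. Slc25a30, Slc25a25 and Slc25a34 spread widely within a group.

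Among the carriers of nucleotides, cofactors and glutathione, 6 of 7 tested were higher and 1 lower with tBA, with a median of 0.13. Slc25a33, which imports pyrimidine nucleotides used for mitochondrial DNA and RNA synthesis, had the smallest p of all the carriers. It was at 1.07, 1.22 and 1.29 on the tBA arrays, against 0.55, 0.53 and 0.37 on the vehicle arrays. Every tBA array was above every vehicle array, and the gap between the groups was wider than the spread within either, with means of 1.19 ± 0.11 with tBA and 0.48 ± 0.10 with vehicle (SD, n = 3 each).

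The difference of Slc25a33 was 0.71 (SE 0.10, 95% interval 0.47 to 0.96), or 1.64-fold, at an unadjusted limma p of 0.000365 and an adjusted p of 0.107 over all probes, so it did not pass. Its other probes pointed the same way. The second was at -0.21, -0.095 and 0.066 with tBA, against -0.43, -0.37 and -0.67 with vehicle, and the third at -0.96, -0.58 and -0.42 with tBA, against -1.23, -1.22 and -1.35 with vehicle. Neither of these probes had overlapping groups, and their differences were 0.41 and 0.61 (limma adjusted p = 0.248 and 0.215). On all 3 probes tBA replicate 1, the tBA array that shares a slide with the vehicle arrays, was the lowest of the tBA arrays and above all vehicle arrays. Set alone against them it gave 0.59 by the brightest probe. Over the 20 alternative treatments of the data the difference stayed between 0.58 and 0.79, and the adjusted p between 0.0508 and 0.503.

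The promoter of Slc25a33 is shown because this carrier had the smallest p, and that of Slc25a25 because it was the other carrier with the same motif. Both are the 250 bases before the annotated gene start from RefSeq on GRCr8, at chr5:165502974-165503223 and chr3:36116582-36116831, both on the minus strand. Capitals mark the cyclic AMP response element TGACGTCA and the E-box CACGTG, which is bound by clock and MYC family factors.
Slc25a33: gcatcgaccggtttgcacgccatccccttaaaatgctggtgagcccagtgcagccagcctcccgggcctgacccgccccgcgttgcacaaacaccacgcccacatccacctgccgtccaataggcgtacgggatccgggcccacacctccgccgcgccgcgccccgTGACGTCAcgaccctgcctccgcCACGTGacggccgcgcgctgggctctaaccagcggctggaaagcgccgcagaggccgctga
Slc25a25: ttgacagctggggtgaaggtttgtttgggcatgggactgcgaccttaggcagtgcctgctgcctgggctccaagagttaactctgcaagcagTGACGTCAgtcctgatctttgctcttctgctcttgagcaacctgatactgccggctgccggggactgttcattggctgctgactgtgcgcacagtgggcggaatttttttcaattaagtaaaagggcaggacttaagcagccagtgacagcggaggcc

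The element TGACGTCA began 84 bases before the start of Slc25a33 and 158 bases before that of Slc25a25. The measured differences of these genes had opposite signs and neither passed the test. A link between the element and these differences was not tested. The E-box of Slc25a33 began 61 bases before its start. Promoters were found for 30 of the 35 carriers. TGACGTCA stood in 2 of the 30, against 1.59% of all 33469 promoters in the table, and CACGTG in 3 of the 30, those of Slc25a2, Slc25a33 and Slc25a51, against 5.59% of all. Of the other motifs searched on both strands, CCAAT stood in 17 of the 30 and 34.0% of all, and GGGCGG in 19 of the 30 and 30.5% of all. GCATGCGC, TGACGCAA, TCAAGGTCA and TTGCGCAA stood in none of the 30 windows and in 2.2%, 0.436%, 0.388% and 0.140% of all. The carrier windows were richer in G and C, at a median of 58.2% against 51.2% of all, which bears on such shares. A match is a description of letters in the window only.

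Slc25a42, which imports coenzyme A, was at 3.22, 3.42 and 3.54 with tBA, against 3.44, 3.11 and 3.24 with vehicle. The groups overlapped, the difference was 0.13 (SE 0.13, limma adjusted p = 0.633), and it turned to -0.043 with slide as a fixed block. The peroxisomal cofactor carrier Slc25a17 was at 0.19, with groups that did not overlap (adjusted p = 0.377), and its second probe was at 0.040 with overlapping groups. The folate carrier Slc25a32, the glutathione carrier Slc25a39 and the NAD carrier Slc25a51 were at 0.33, 0.081 and -0.078, all overlapping.

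The mitoferrins carry iron into mitochondria for haem and iron-sulfur cluster assembly. Slc25a37, the mitoferrin of red cell precursors, was at -1.72, -1.85 and -2.18 with tBA, against -1.77, -2.37 and -2.21 with vehicle. The groups overlapped, with a difference of 0.20 (SE 0.19, limma adjusted p = 0.625). It was 0.074 when vehicle replicate 2 was left out, 0.10 when tBA replicate 1 was, 0.33 when tBA replicate 3 was and 0.37 when vehicle replicate 1 was, and 0.39 with a fixed block for slide. Alas2, the haem synthesis enzyme of red cell precursors, was at 0.99, 1.51 and 1.15 with tBA and at 1.11, 1.76 and 0.88 with vehicle; its part in the values of Slc25a37 was not tested. Slc25a28, the mitoferrin of other cells, was at -0.26 (adjusted p = 0.410), with its other probes at -0.36 and -0.33 and overlapping groups on all 3.

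The uncoupling protein relatives were lower with tBA in 3 of 3 tested, and none passed. Slc25a30 was at 0.57, 1.67 and 2.60 on the tBA arrays, against 3.31, 2.48 and 3.73 on the vehicle arrays. The tBA arrays were far apart from each other, and tBA replicate 3 lay above vehicle replicate 2. The means were 1.61 ± 1.02 with tBA and 3.18 ± 0.64 with vehicle (SD, n = 3 each). The difference of -1.56 (SE 0.56, limma adjusted p = 0.284) was the largest in size among the carriers, and the second probe gave -1.89 (adjusted p = 0.280). Its size varied with the arrays used, from -1.04 without tBA replicate 1 to -2.06 without tBA replicate 3. It was -2.61 with slide as a fixed block, where tBA replicate 1 alone stands for tBA.

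Slc25a14 was at -0.23, -0.14 and -0.13 with tBA, against 0.001, 0.015 and 0.11 with vehicle. The groups were narrow and did not overlap. The difference was small at -0.21 (SE 0.08, limma adjusted p = 0.310), or 0.864-fold, and was -0.13 with normexp background correction. Its second probe gave -0.34 with overlapping groups. Slc25a27 was at -0.34 (SE 0.16, adjusted p = 0.360) by its brightest probe with groups that did not overlap, while its other tested probe was at -0.095 with overlapping groups.

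The remaining carriers have no settled substrate or act elsewhere. Slc25a34 was at -1.15, 0.44 and -0.42 with tBA, against -0.66, -0.95 and -2.02 with vehicle. Its groups overlapped, and the difference of 0.84 (SE 0.50, limma adjusted p = 0.441) was the largest on the higher side by its brightest probe. It was 0.43 when either tBA replicate 2 or vehicle replicate 3 was left out, 0.060 with a fixed block for slide, and 0.31 by the other probe. Without tBA replicate 1 it was 1.22, and without vehicle replicate 1 it was 1.11. The log2 of the summed level of the 9 skeletal muscle markers was -1.31, -0.49 and -0.48 with tBA and -0.67, -0.95 and -0.090 with vehicle, and their part in the result was not tested. Among the tBA arrays replicate 1 was lowest for both Slc25a34 and this sum. Among the vehicle arrays replicate 3 was lowest for Slc25a34 and highest for the sum, where Tnnc2 was at -0.93 while Myh2 and Atp2a1 were at their lowest vehicle values.

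Slc25a47, a carrier enriched in liver, was at 6.89, 7.39 and 6.81 with tBA, against 7.06, 6.66 and 6.88 with vehicle. The tBA range held 2 of the 3 vehicle arrays, and the difference was 0.16 (SE 0.19, limma adjusted p = 0.678), turning to -0.014 without tBA replicate 2. Slc25a46, which sits in the outer membrane and takes part in mitochondrial fission and fusion, was at 0.075, and Slc25a16, Slc25a35 and Slc25a54 were at -0.076, 0.12 and 0.12. Slc25a53 was above background on vehicle replicate 3 only and was not tested.

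The spread between arrays of a group differed between the carriers. Each animal had 1 array and the tBA arrays lay on slides 1 and 2, so animal, array and slide cannot be told apart in it. The SD within a group, pooled over both groups, had a median of 0.19 over the tested carriers and 0.16 over all tested genes. It ran from 0.050 to 0.85 and exceeded 0.3 in 6 carriers. These were Slc25a30 at 0.85, Slc25a34 at 0.76, Slc25a32 at 0.72, Slc25a25 at 0.66, Slc25a54 at 0.47 and Slc25a23 at 0.31. Slc25a32 shows such a spread. By its brightest probe it was at 3.05, 2.56 and 1.94 with tBA and at 2.35, 2.95 and 1.27 with vehicle, so the vehicle arrays enclosed all but 1 of the tBA values. Its second probe kept vehicle replicate 3 lowest of all arrays, at 0.65, 0.27 and -0.045 with tBA and at 0.14, 0.68 and -0.81 with vehicle.

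More than 1 probe was tested for 25 carriers. In 21 of them the tested probes had the same sign, and in 4, Slc25a4, Slc25a16, Slc25a42 and Slc25a44, they had opposite signs. Of the 67 carrier probes tested 0 had an adjusted p under 0.05 in limma. Over the whole array 43 of 37647 probes did, or 0.114% (0.0691% higher and 0.0452% lower with tBA).

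**Figure D3:**
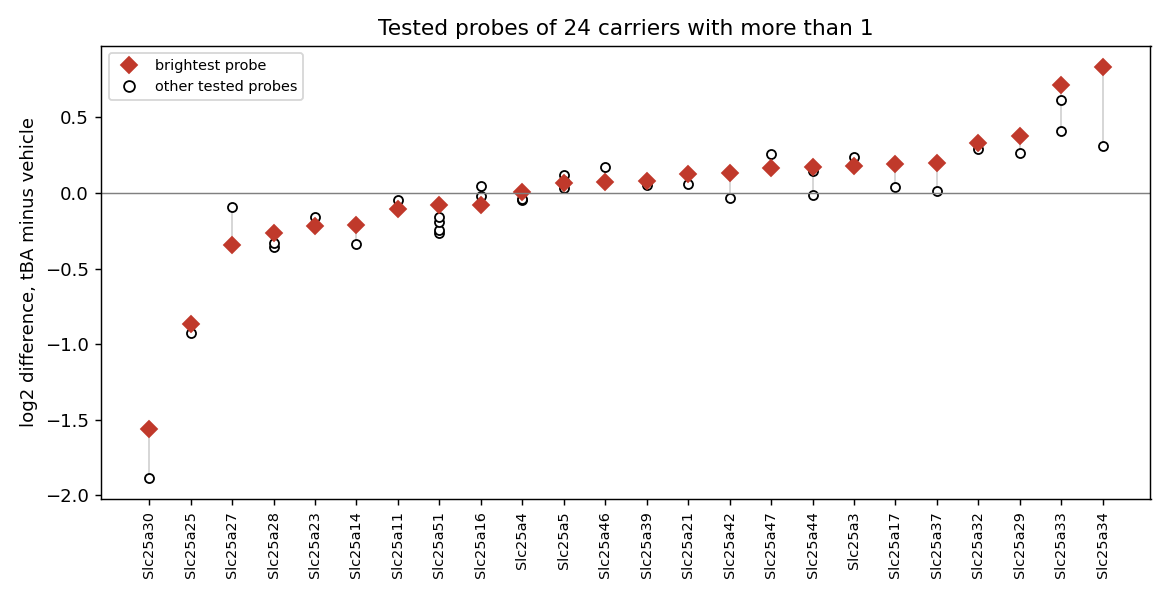
The vertical axis gives the log2 difference, tBA minus vehicle, of each tested probe of 24 carriers with more than 1; diamonds are the brightest probe and circles the others. Probes of Slc25a33, Slc25a25 and Slc25a30 lie on the same side of zero, gene by gene, and those of Slc25a4, Slc25a16, Slc25a42 and Slc25a44 on both sides.

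Of 18 other carriers and channels of the mitochondrial membranes 16 were tested, 9 higher and 7 lower, with 0 past an adjusted p of 0.05 in limma and a median difference of 0.11. At an unadjusted p under 0.05 there were 2 of the 16, against 15.1% of all genes. The array medians of this list, relative to the vehicle mean, were 0.068, 0.067 and 0.083 with tBA and 0.003, 0.058 and -0.038 with vehicle. The groups did not overlap, but the gap between 0.067 and 0.058 was smaller than the spread of the vehicle arrays. The citrate carrier Slc25a1, which supplies the cytosol with carbon for fat synthesis, was at 2.56, 2.33 and 2.37 with tBA, against 2.93, 2.74 and 2.72 with vehicle. It had non-overlapping groups and a difference of -0.38 (adjusted p = 0.242). Vdac3, a channel of the outer membrane, was at 5.58, 5.59 and 5.62 with tBA, against 5.33, 5.27 and 5.40 with vehicle, a difference of 0.26 (adjusted p = 0.258). The uncoupling proteins Ucp1 and Ucp3 were not well above background on any array.

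Genes listed for mitochondrial content were higher in 14 of 15, against 50.6% of all genes, with a median of 0.18 and 0 past an adjusted p of 0.05 in limma. The list is mixed and also holds the transcription regulators Ppargc1a, Nrf1 and Esrra. The lower gene, Phb2, was at -0.14 (limma adjusted p = 0.473), with groups that did not overlap. The list was chosen with earlier results of these data known, and its values are given under the main scaling only. The median of the carriers was 0.081 under that scaling and 0.024 under quantile normalization. At an unadjusted p under 0.05 there were 5 of the 15, all higher, where 7.64% of all genes were higher at that p. Among them the import receptors Tomm20 and Tomm70 were at 0.34 (adjusted p = 0.219) and 0.42 (adjusted p = 0.261), and the mitochondrial transcription factor Tfam at 0.22 (adjusted p = 0.309). The others were Esrra at 0.24 (limma adjusted p = 0.270) and the chaperone Hspd1 at 0.40 (limma adjusted p = 0.273). Citrate synthase Cs, not among them, was at 0.17 (limma adjusted p = 0.348). The array medians of this list, relative to the vehicle mean, were 0.14, 0.26 and 0.18 with tBA and 0.001, -0.011 and -0.002 with vehicle, so the groups stood apart. For the carriers the same medians were 0.038, 0.012 and 0.041 with tBA and 0.006, 0.046 and 0.018 with vehicle, and the groups overlapped. The differences between the lists were not tested.

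**Figure D4:**
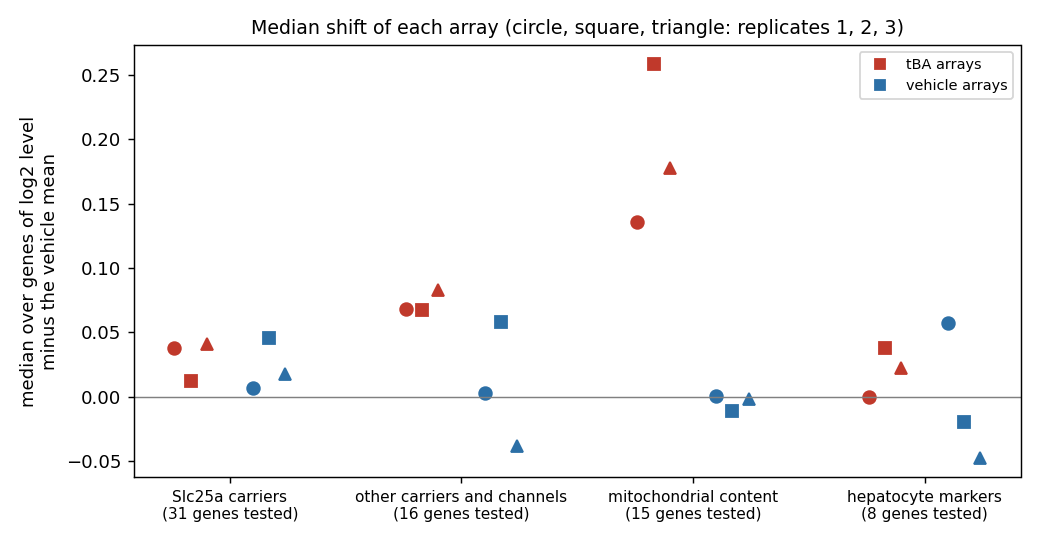
The vertical axis gives, for each array, the median over a list's tested genes of the log2 level minus the vehicle mean of each gene, for the Slc25a carriers, other carriers and channels, mitochondrial content genes and hepatocyte markers. The tBA arrays lie among the vehicle arrays for the Slc25a carriers, at 0.012 to 0.041 against 0.006 to 0.046. They lie just above them for the other carriers and channels, at 0.067 to 0.083 against -0.038 to 0.058, a gap smaller than the vehicle spread. For the mitochondrial content genes they lie above the vehicle arrays, at 0.14 to 0.26 against -0.011 to 0.001.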

How the data were processed

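Liver RNA of 6 rats was labelled with Cy3 and read on 6 one-colour arrays. Per the file headers, the intensity deposited for each spot came from Feature Extraction, version 10.7.1.1 (the submitters' processing notes give 10.7), with local background removed from the processed signal. The deposited series table holds a linear ratio, the processed signal over a divisor of 570.0 to 639.5 per array; its scaling is not stated, and the deposited medians per column were 0.0982, 0.0950 and 0.0952 for tBA and 0.102, 0.102 and 0.0994 for vehicle. Its values rise with the signal and are not centred by gene.

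From the processed signal, log2 minus each array's 75th percentile was computed. No control spot was used, and 3 to 16 outlier spots were dropped from each array. A probe was tested where every array of either group had it well above background (37647 probes), using limma 3.58.1 (lmFit, eBayes; R 4.3.3), and p-values were adjusted by Benjamini-Hochberg over all of them at 0.05. Arrays of the same group correlated at 0.984 to 0.990 and of different groups at 0.982 to 0.987 across probes. The number of arrays limits the precision. Probes were named through their accession in RefSeq genes of GRCr8; 27460 matched. The array annotation uses rn4, so no coordinates from it are given, and promoter coordinates are those of GRCr8.

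The named genes were carriers with an unadjusted p under 0.05, a list of carriers by role, and the 2 largest differences each way; the rest are given by difference or detection. The members and lists were chosen with earlier results of these data known, and the promoter motifs after the carriers' values were seen. Besides the lists in the report, blood and immune markers had 7 tested at a median of -0.19, endothelial and stellate markers 5 at -0.023, hepatocyte markers 8 at 0.034, muscle markers 5 at -0.084, adipocyte markers 4 at 0.30 and pancreas markers 3 at 0.13, with 0 past the threshold in each and 0, 0, 0, 1, 1 and 0 at an unadjusted p under 0.05. Of all tested genes 15.1% were under that unadjusted p. The fit was tested on simulated data. Normexp used the median signal. Alternatives were other background corrections, scalings, filters and variance models, the authors' table, slide and replicate blocks, the mean of a gene's probes, and each array left out. Figures used Python 3.11.15 and matplotlib 3.10.9. The values of 1 carrier are not reported here, though it enters the counts and medians.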

Additional observations from a re-analysis of the deposited data

How the results depend on the processing

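No Slc25a carrier passed the adjusted threshold under any of the 20 alternatives. The number of probes called over the whole array, 43 in the report, was 18 with no filter on dim probes, 0 in limma among probes above background on all 6 arrays (5637 at an unadjusted p under 0.05), 65 with a common floor for dim signals, 68 with an intensity trend, 20 with slide as a fixed block, 0 within slide 1 (2956 at an unadjusted p under 0.05) and 6 with the replicate block. It ran from 6 to 45 over the arrays left out in turn, at 6 and 14 when tBA replicate 2 or 3 was left out, and at 22 and 25 when vehicle replicate 1 or 3 was. The median difference of the carriers, 0.081 in the report, was 0.024 under quantile normalization, 0.154 with median scaling (all genes then at 0.076), 0.058 with the percentile over detected probes, and 0.038 with slide as a fixed block and within slide 1. It ran from 0.038 to 0.079 over the arrays left out. The carriers higher with tBA, 19 of 31 in the report, numbered 17 under quantile normalization, 20 with median scaling and 22 with slide as a fixed block. That number ran from 16 to 20 over the arrays left out. The carriers at an unadjusted p under 0.05, 4 in the report, numbered 6 with median scaling, 5 with an intensity trend, 5 by the mean of a gene's probes, 2 with no filter, 3 with the replicate block, and 1 to 4 over the arrays left out. These were of 31 tested, or of 35 with no filter. Counts over all probes moved as well. Of 37647 probes, 7154 were under that limma p with median scaling, 6439 with an intensity trend and 4912 with the replicate block. Over the arrays left out they were 3995 to 6370, and with no filter 5512 of 61657.

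Of the 15 carriers followed through the alternatives, 10 kept their sign throughout. Slc25a4, at 0.008 in the report, was at -0.013 under quantile normalization, -0.016 with the percentile over detected probes and -0.028 by the mean of its probes, and ran from -0.10 to 0.082 over the arrays left out. Slc25a5 was at -0.035 under quantile normalization. With slide as a fixed block and within slide 1, Slc25a10 was at 0.066 and Slc25a42 at -0.043. Slc25a47 ran from -0.014 to 0.27 over the arrays left out. Same-numbered arrays of the groups did not deviate together, with correlations of -0.056, -0.064 and 0.014 for numbers 1 to 3, so the numbers were not read as pairs. No carrier was called with the replicate block or without it, so the calls do not bear on the pairing. With 1 tBA array on slide 1, the within-slide fit assumes that this array varies like the others.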
